A study of Homo sapiens with 36 samples.

Results

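The zinc finger (ZNF) genes of chromosome 19 were followed through 3 RNA-seq experiments on cisplatin-resistant embryonal carcinoma cells. A gene entered the set when it was protein-coding, carried an NCBI symbol of the form ZNF plus a number, lay on chromosome 19 and had a mean above 1 log2 CPM (counts per 1000000 counted reads) over the 12 libraries of an experiment. The rule used level, name and position only. Because the level was averaged over all arms, a gene could enter through an arm in which it was higher. Only the untreated arm was checked for this, and it was under the limit for 1 called member (ZNF599 in NT2/D1-A4). Falls with a treated arm under the limit were not counted. ZNF233 with cisplatin in NT2/D1-A4 is such a fall (untreated mean 1.39 log2 CPM, log2 fold change -0.56). It took 223 of 16431 genes in the NT2/D1-A4 experiment, 227 of 17035 in 2102EP-C1 cells given GSK-J4 and 227 of 16459 in 2102EP-C1 cells with a knockdown. In all 230 genes entered in at least one experiment, out of 18078 genes listed anywhere, and 221 entered in all 3. The 3 tables list 238, 239 and 240 such genes on chromosome 19 before the level limit.

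Most of these genes encode C2H2 zinc finger proteins, in which an array of fingers reads DNA and an N-terminal KRAB box, where present, recruits the corepressor TRIM28. TRIM28 in turn brings the H3K9 methyltransferase SETDB1, heterochromatin proteins and DNA methylation, and the best known targets of the family are transposable elements that are silenced in early embryonic cells. The genes arose by tandem duplication and lie in clusters on chromosome 19, and embryonal carcinoma cells, which resemble pluripotent embryonic cells, express many of them. KDM6A and KDM6B remove methyl groups from H3K27, the polycomb mark, and GSK-J4 is a small molecule inhibitor of both enzymes.

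NT2/D1-A4 and 2102EP-C1 are single clones of human testicular embryonal carcinoma lines that were made resistant to cisplatin, so all cells here, controls included, carry acquired resistance. Each clone received no drug, cisplatin at 0.5 µM for 6 h, GSK-J4 at 1 µM over 3 days, or GSK-J4 then cisplatin. The arms without drug are the study's vehicle controls, called untreated here. In the knockdown experiment 2102EP-C1 cells carried either the pLKO.1 empty vector or shRNAs that target both KDM6A and KDM6B (sh6A+6B), each without or with 0.5 µM cisplatin for 6 h, and per the study's methods RNA was taken a day after cisplatin. The experiments have 4 arms each and every arm 3 libraries, 36 in all, described as biological triplicates, and p-values measure the spread between these libraries. Reads were counted over whole cell populations, so fewer expressing cells and less RNA per cell cannot be told apart.

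Levels are given in CPM for each library, and fold changes on the log2 CPM scale of the deposited tables, which adds a small prior count and so understates changes of low genes. A gene was called changed when its fold change exceeded 1.3 and its limma p-value, adjusted by Benjamini-Hochberg over every gene of the experiment, was under 0.05. Libraries held 26.8 to 49.5 M (mega) counted reads in NT2/D1-A4, 30.3 to 53.6 M in 2102EP-C1 with GSK-J4 and 79.4 to 100.9 M in the knockdown experiment. KDM6A and KDM6B fell in sh6A+6B cells by 1.01 and 1.01 on the log2 scale (SE 0.03 and 0.05, adjusted p = 2.1e-18 and 1.8e-14). With GSK-J4, KDM6B rose in both lines (log2 fold change 0.88 in NT2/D1-A4 and 0.81 in 2102EP-C1, adjusted p = 1.2e-09 and 2.3e-10), while KDM6A had a log2 fold change of 0.06 in each. The pluripotency factor POU5F1 was read at a median of 517 CPM in NT2/D1-A4, 692.2 CPM in 2102EP-C1 and 629.8 CPM in the knockdown experiment.

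The chromosome 19 ZNF genes took a small share of the counted reads, and most were at modest levels one by one. Together they took 0.819% ± 0.00717 (SD, n = 3) of the counted reads in untreated NT2/D1-A4 cells, 0.775% ± 0.00629 in untreated 2102EP-C1 cells and 0.832% ± 0.00550 in pLKO.1 cells. Divided by transcript length, the median member had 5.41 CPM per kilobase in untreated NT2/D1-A4 cells, 5.33 in untreated 2102EP-C1 cells and 5.80 in pLKO.1 cells. ZNF146, whose protein is little more than a row of fingers, had the highest level per kilobase in all 3, at 94.4, 102 and 120.5 CPM per kilobase. Next came ZNF730 in NT2/D1-A4, at 44.9 CPM per kilobase, and ZNF208 in 2102EP-C1, at 46.5 with no vector and 60.5 with pLKO.1. By mean log2 CPM not divided by length, ZNF146 led in NT2/D1-A4 at 8.22 and ZNF208 in the other experiments at 8.87 and 9.23.

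Just inside the level limit were ZNF628 in NT2/D1-A4, at a mean of 1.06 log2 CPM, and ZNF433 in 2102EP-C1, at 1.07 and 1.08. Just outside it were ZNF491 at 0.72, ZNF835 at 0.997 and ZNF653 at 0.96. The tables of the clones were normalized separately, and their untreated levels are set side by side only as a description. Over the 221 shared members the mean log2 CPM of the clones had a Pearson correlation of 0.95 across genes, which share libraries and length, and no member differed by more than 2 on the log2 scale. ZNF600 was the member furthest above in 2102EP-C1 (4.05 log2 CPM in NT2/D1-A4 and 5.94 in 2102EP-C1), and ZNF823 the one furthest below (3.71 and 2.49).

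GSK-J4 alone in NT2/D1-A4 cells raised 14 of the 223 members and lowered 9, where 13.8% of all 16431 genes were called higher and 6.48% lower. Without the fold limit, 38 members had adjusted p under 0.05 with higher values and 75 with lower values (24.5% and 23.8% of all genes). By sign alone 72 members were higher and 151 lower, with a median log2 fold change of -0.07 against 0.01 over all genes. The log2 values of the 3 treated libraries lay wholly above those of the 3 controls in 46 members and wholly below in 93, where 30.4% and 29.2% of all genes did so. When libraries were scaled by total reads alone, the medians were -0.03 over the members and 0.05 over all genes.

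Many of the rises lay in one stretch of the chromosome. Ordered by position and split wherever a gap of 1000000 bases or more held no member, the genes formed 15 blocks, and the third, chr19:11483429-12633834 (GRCh38.p14) on the short arm, held 7 of the 14 rises and 1 of the 9 falls among its 19 members. Its median log2 fold change was 0.16, with 12 of 19 members higher. The block that ends the long arm, chr19:55476617-58475436, had 52 members, no rise, 5 falls and a median of -0.10. The intermediate block at chr19:43596392-45076478 had a median of -0.20, with 2 falls among 23 members. The remaining large blocks had medians of -0.09 for the 35 members of the cluster around ZNF208, -0.04 for the 25 members around ZNF146 and -0.07 for the 37 members of chr19:51571283-53580269, which held no call.

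**Figure D1:**
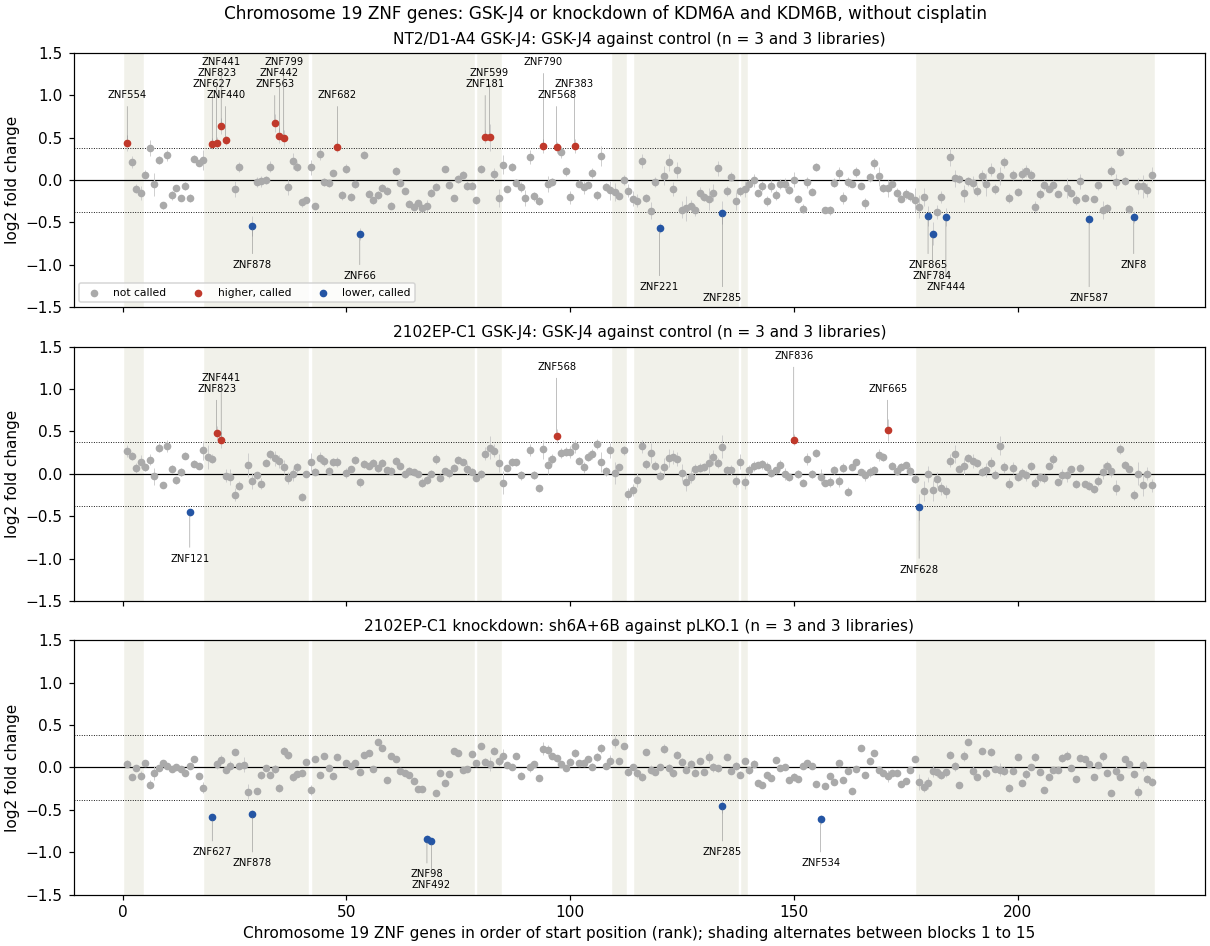
Log2 fold change (vertical axis) with 1 SE of each chromosome 19 ZNF gene, placed by its rank along the chromosome (horizontal axis), for GSK-J4 in NT2/D1-A4 (top), GSK-J4 in 2102EP-C1 (middle) and sh6A+6B in 2102EP-C1 (bottom); shading alternates between the 15 blocks and dotted lines mark the 1.3-fold limit. The 7 red points of the top panel over the third block are its rises, a mix of 5 rises and 2 falls is scattered in the middle panel, and all 6 calls of the bottom panel are falls.

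ZNF563 (chr19:12317477-12347390), a KRAB zinc finger gene of the third block, showed the largest rise. It was read at 3.48, 3.42 and 3.82 CPM in untreated NT2/D1-A4 libraries and at 5.90, 5.55 and 6.34 CPM after GSK-J4, and the groups did not overlap (log2 fold change 0.67, SE 0.11, adjusted p = 4.2e-05). Cisplatin libraries lay in between, at 4.25, 4.77 and 4.19 CPM, and libraries with both drugs were the highest, at 6.13, 7.54 and 8.16 CPM. The change of the combined arm was 1.93-fold (log2 fold change 0.95, SE 0.11, adjusted p = 5.5e-07).

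ZNF441 (chr19:11767000-11784078), another KRAB gene, rose from 5.38, 4.83 and 4.74 CPM to 8.75, 7.19 and 8.25 CPM (log2 fold change 0.64, SE 0.09, adjusted p = 1.1e-05). Every GSK-J4 library of ZNF441 was above every untreated and every cisplatin library, the latter at 6.09, 5.69 and 5.88 CPM. ZNF442 (chr19:12345944-12373779), whose 3′ end overlaps the 5′ start of ZNF563 on the same strand so that some reads may fit both, went from 4.91, 5.78 and 5.17 CPM to 7.40, 8.06 and 8.16 CPM, again without overlap (log2 fold change 0.52, SE 0.09, adjusted p = 7e-05). ZNF823 (chr19:11721265-11738946), the neighbour of ZNF441, was read at 13, 13 and 12.1 CPM untreated and 17.2, 17.6 and 18.4 CPM with GSK-J4 (log2 fold change 0.43, SE 0.07, adjusted p = 6.1e-05). Its cisplatin libraries were also all above the untreated ones, at 15.1, 16 and 16.4 CPM, and the combined arm reached 18.7, 20.6 and 22.9 CPM.

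The other rises of the block were ZNF440, from 14.2, 13.7 and 14.8 to 19.9, 20.7 and 20.5 CPM (log2 fold change 0.47, SE 0.05, adjusted p = 7.7e-07), and ZNF627, from 26.1, 27.4 and 29 to 39, 37.2 and 38.3 CPM (log2 fold change 0.43, SE 0.06, adjusted p = 2.3e-05). ZNF799 completed the 7, with a log2 fold change of 0.49. Of its 50-base stretches 32.4% also occur in its neighbour ZNF443, so its reads may be split. The fall within the block was that of ZNF878, from 4.85, 5.62 and 5.14 to 3.46, 3.59 and 3.93 CPM (log2 fold change -0.54, SE 0.11, adjusted p = 0.00063). All 8 genes carry a match to the KRAB box, so that neighbouring genes of one structural class moved in both directions.

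The promoters of ZNF563, ZNF441, ZNF442 and ZNF823 are shown because these genes rose together with GSK-J4 in NT2/D1-A4, and that of ZNF492 because it was the gene lowered most by the knockdown. Each line gives the 250 bases before the start used for the RefSeq promoter on GRCh38.p14, 5′ to 3′ on the strand of the gene. The windows are chr19:12333634-12333883 (minus strand), chr19:11766750-11766999 (plus), chr19:12365684-12365933 (minus), chr19:11738947-11739196 (minus) and chr19:22634074-22634323 (plus) in that order. For ZNF563 and ZNF442 that start lies downstream of the outermost annotated start, so these windows fall inside the gene positions given above. Capitals mark the letters CCAAT on either strand and the GC box GGGGCGGGG on either strand.
ZNF563: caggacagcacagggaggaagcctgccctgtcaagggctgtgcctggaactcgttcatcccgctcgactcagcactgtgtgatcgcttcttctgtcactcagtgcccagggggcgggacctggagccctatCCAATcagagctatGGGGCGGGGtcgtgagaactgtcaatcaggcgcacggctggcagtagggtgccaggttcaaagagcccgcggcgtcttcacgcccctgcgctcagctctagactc
ZNF441: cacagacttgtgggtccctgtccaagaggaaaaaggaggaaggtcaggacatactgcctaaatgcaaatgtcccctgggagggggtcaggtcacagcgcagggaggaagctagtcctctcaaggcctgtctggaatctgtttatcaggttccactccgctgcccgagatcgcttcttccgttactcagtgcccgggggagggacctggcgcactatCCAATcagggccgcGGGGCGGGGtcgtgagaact
ZNF442: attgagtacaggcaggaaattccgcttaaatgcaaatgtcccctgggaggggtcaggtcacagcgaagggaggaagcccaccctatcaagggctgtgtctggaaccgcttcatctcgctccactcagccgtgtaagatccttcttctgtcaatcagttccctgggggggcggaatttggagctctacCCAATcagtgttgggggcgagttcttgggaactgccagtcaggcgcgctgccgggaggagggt
ZNF823: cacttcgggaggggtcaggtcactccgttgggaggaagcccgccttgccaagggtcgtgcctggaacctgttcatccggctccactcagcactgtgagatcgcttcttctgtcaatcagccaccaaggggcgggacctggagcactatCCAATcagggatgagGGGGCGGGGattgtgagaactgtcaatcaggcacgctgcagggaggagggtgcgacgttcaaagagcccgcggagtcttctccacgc
ZNF492: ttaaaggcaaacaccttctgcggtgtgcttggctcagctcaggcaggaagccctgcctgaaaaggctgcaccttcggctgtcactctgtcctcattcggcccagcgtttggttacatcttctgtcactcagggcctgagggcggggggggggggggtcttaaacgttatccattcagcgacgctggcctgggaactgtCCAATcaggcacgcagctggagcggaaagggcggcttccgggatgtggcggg

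All 5 of these stretches hold CCAAT and 3 hold the GC box. RefSeq windows were matched to 201 of the 230 members, and 51.7% of them hold CCAAT against 34.5% of 15843 protein-coding promoters. The ETS letters CCGGAAGT were found in 15.4% of member promoters against 5.09% of all, the GC box in 23.9% against 21.8%, and TTTGGCGC, an E2F site, in 3.48% against 0.732%. The cyclic AMP element TGACGTCA, the NRF1 site and the ATF4 element TGATGCAAT were at 2.49%, 1.49% and 0.498% of member promoters against 2.32%, 1.48% and 0.158% of all. Both strands of the same 250 bases were read in every search. A match is a description of the letters and not a binding site.

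The promoters also share longer runs, which were picked after the sequences had been seen. The 10 bases gggaggaagc occur in the promoters of ZNF563, ZNF441, ZNF442 and ZNF823 alike, in 21 member promoters (10.45%) and in 98 of all 15843 (0.619%). ZNF441 and ZNF442 share 26 bases, taaatgcaaatgtcccctgggagggg, found in no other promoter of the table. The run tccaatcagg, which contains CCAAT, is in 41 member promoters (20.4%) against 78 of all (0.492%), and 13 of the 41 lie in the third block and 26 in the block around ZNF208. With GSK-J4 in NT2/D1-A4 the 40 members with it had a median log2 fold change of -0.06 and the 156 members without it had -0.07.

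**Figure D2:**
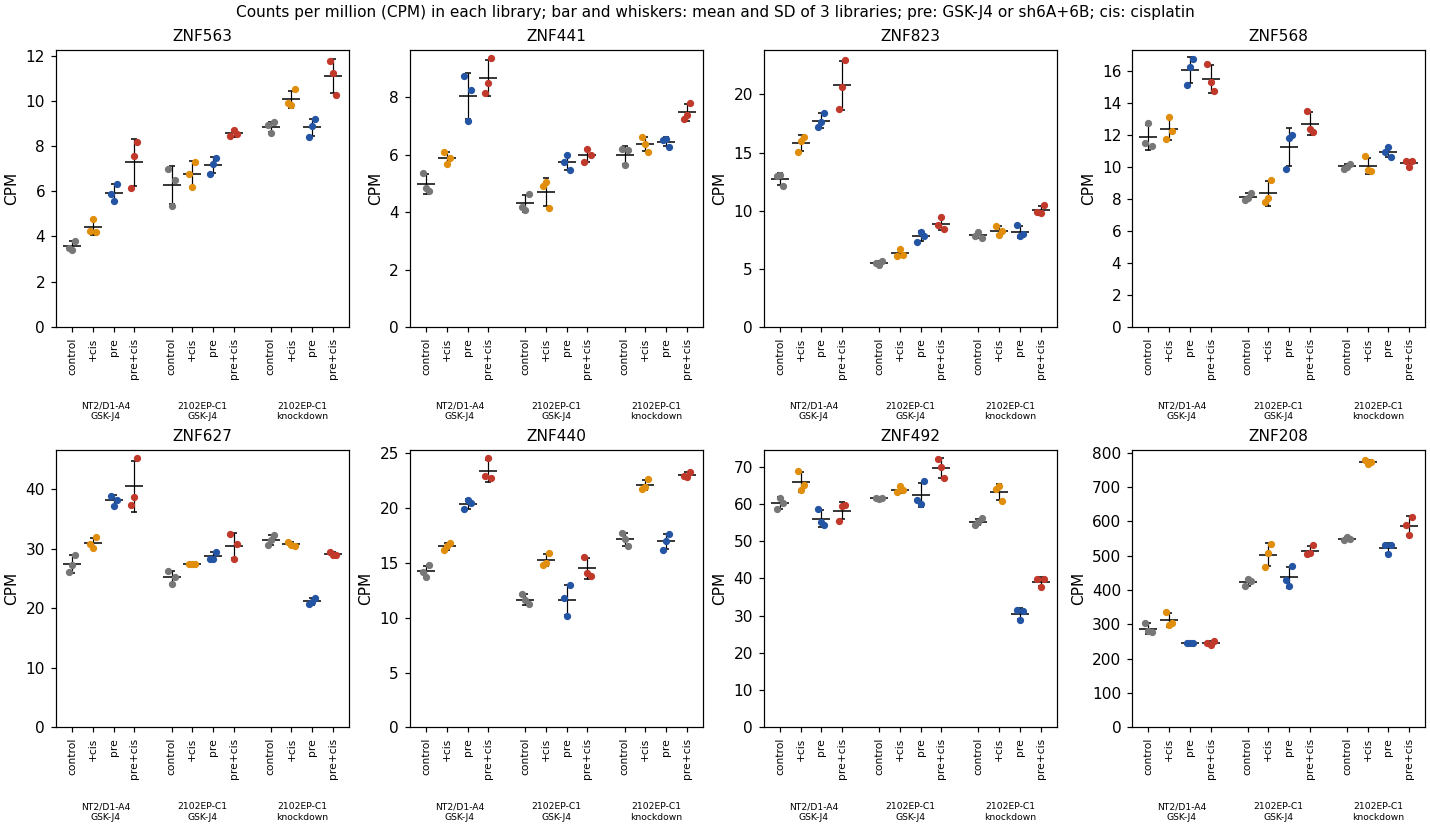
CPM (vertical axis, from 0) of 8 chromosome 19 ZNF genes in each library of the 4 arms of each experiment; points are libraries, bars and whiskers the mean and SD of 3. ZNF563, ZNF441 and ZNF823 step up with GSK-J4 in NT2/D1-A4, ZNF492 drops in the knockdown, from 54.4 to 56.1 CPM down to 28.9 to 31.6 CPM, and ZNF208 peaks in pLKO.1 cells given cisplatin.

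The other 7 rises in NT2/D1-A4 lay in 4 other blocks, which held 1, 1, 2 and 3 of them. ZNF181, a KRAB gene at chr19:34734243-34745378, went from 13.9, 12.8 and 13.5 to 20.9, 18.7 and 19.8 CPM (log2 fold change 0.51, SE 0.07, adjusted p = 1.5e-05), and 10.1% of its 50-base stretches also occur in another chromosome 19 ZNF gene. Its neighbour ZNF599, with an untreated mean of 0.95 log2 CPM, was under the level limit in untreated cells and entered through the other arms. It went from 1.99, 1.53 and 1.94 to 2.76, 2.54 and 2.75 CPM (log2 fold change 0.50, SE 0.16, adjusted p = 0.012), a call that was lost without untreated library 2 (log2 fold change 0.39, adjusted p = 0.072). ZNF568, ZNF790 and ZNF383 of the ZNF146 cluster rose by 0.39 to 0.40 on the log2 scale, ZNF554 by 0.44 and ZNF682 by 0.39. ZNF568 is known as the human counterpart of a mouse repressor of a placental Igf2 transcript, and it was read at 11.5, 12.7 and 11.3 CPM untreated and 15.1, 16.2 and 16.7 CPM with GSK-J4.

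Among the falls, ZNF66 (chr19:20776304-20809995) was the largest. Its untreated libraries were at 45.3, 38.7 and 44.9 CPM and its GSK-J4 libraries at 28, 27.9 and 29.6 CPM (log2 fold change -0.64, SE 0.07, adjusted p = 8.1e-07), while cisplatin alone left it at 54.3, 44.6 and 44.3 CPM. ZNF221 (chr19:43951228-43981613) went from 32.3, 31.7 and 30.2 to 22.2, 21.4 and 22 CPM, with groups well apart (log2 fold change -0.57, SE 0.06, adjusted p = 4.2e-07). ZNF784, a short GC-rich gene with no KRAB match, fell from 3.24, 3.0 and 3.0 to 1.89, 1.98 and 2.20 CPM (log2 fold change -0.63, SE 0.14, adjusted p = 0.00088). ZNF587 fell from 29.7, 30.6 and 29.1 to 23.7, 21.2 and 22.4 CPM (log2 fold change -0.46, SE 0.06, adjusted p = 2.9e-06), and 24.2% of its 50-base stretches are shared with another such gene, nearly all with ZNF417, so its reads may be split. ZNF8, ZNF444, ZNF865 and ZNF285 made up the 9, with log2 fold changes of -0.44, -0.44, -0.42 and -0.39.

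In 2102EP-C1 cells the same drug called fewer members. GSK-J4 alone raised 5 and lowered 2 of the 227, against 7.79% and 3.12% of all 17035 genes. At adjusted p under 0.05 whatever the fold, 58 members were higher and 19 lower (19.2% and 16% of all genes). By sign 157 members were higher and 70 lower, with a median log2 fold change of 0.07 against 0.00 over all genes, and the median fell to 0.02 with the length and GC trend removed. Treated and untreated libraries did not overlap in 78 members that were higher and in 18 that were lower, where 23.8% and 20.8% of all genes were so separated. One library stood apart here. Members took 0.789% and 0.780% of reads in GSK-J4 libraries 1 and 2 but 0.835% in library 3, and without library 3 the median was 0.03 and 5 members were called.

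ZNF665 (chr19:53162424-53193358) had the largest rise, from 2.76, 2.83 and 3.30 to 4.33, 3.58 and 5.11 CPM (log2 fold change 0.51, SE 0.13, adjusted p = 0.0025). The 3 members called higher in both lines were ZNF823, ZNF568 and ZNF441. ZNF823 went from 5.51, 5.36 and 5.67 to 7.34, 8.20 and 7.85 CPM (log2 fold change 0.48, SE 0.08, adjusted p = 4.6e-05). ZNF568 went from 7.96, 8.04 and 8.39 to 9.85, 11.8 and 12 CPM, with 1 GSK-J4 library lower than the others but above all controls (log2 fold change 0.44, SE 0.08, adjusted p = 0.00014).

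ZNF441 was read at 4.19, 4.08 and 4.64 CPM untreated and 5.75, 5.98 and 5.48 CPM with GSK-J4 (log2 fold change 0.39, SE 0.10, adjusted p = 0.0022). Its log2 fold change fell to between 0.36 and 0.37, under the fold limit, without untreated library 1 or 2 or without GSK-J4 library 2. ZNF836, at 12.6, 13 and 13.4 CPM untreated and 16.8, 16.7 and 18.7 CPM treated (log2 fold change 0.40, SE 0.06, adjusted p = 1.7e-05), was likewise below the limit without untreated library 1 or GSK-J4 library 3, at 0.37 and 0.34.

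ZNF121 (chr19:9560329-9584504), one of the abundant members, was the clear fall. Untreated 2102EP-C1 libraries had 195, 191 and 191 CPM and GSK-J4 libraries 143, 139.9 and 142 CPM, and the arm with both drugs 119, 133 and 133 CPM (log2 fold change -0.46, SE 0.04, adjusted p = 2.4e-10 for GSK-J4 alone). The other fall was ZNF628, a GC-rich gene, at 3.48, 4.36 and 4.25 CPM untreated and 3.47, 3.86 and 2.15 CPM treated, where the groups overlapped (log2 fold change -0.39, SE 0.15, adjusted p = 0.043).

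Knockdown of KDM6A and KDM6B lowered 6 members and raised none, against 5.74% of all 16459 genes called lower and 6.34% higher. At adjusted p under 0.05 without the fold limit, 52 members were higher and 63 lower (25.6% and 27.2% of all genes). By sign 102 were higher and 125 lower, with a median log2 fold change of -0.01 against 0.00 over all genes. Scaling by total reads alone gave medians of 0.00 over the members and 0.01 over all genes. Libraries did not overlap in 54 members that were higher and 68 that were lower, against 28.3% and 29.9% of all genes.

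A pair of neighbours in the cluster around ZNF208 fell furthest. ZNF492 (chr19:22634324-22667671) had 54.4, 55 and 56.1 CPM in pLKO.1 libraries and 31.6, 28.9 and 31.1 CPM in sh6A+6B libraries (log2 fold change -0.87, SE 0.03, adjusted p = 5.3e-16). ZNF98 (chr19:22391019-22422346) had 26.3, 26.3 and 26.1 CPM and 15.4, 13.4 and 15.6 CPM (log2 fold change -0.84, SE 0.04, adjusted p = 9.2e-14). Of their 50-base stretches 31.3% and 56.7% occur in another chromosome 19 ZNF gene, 29.4% and 54.2% in each other, so reads of one may be counted for the other and the pair cannot be told apart with certainty. With GSK-J4, ZNF492 had a log2 fold change of -0.15 in NT2/D1-A4 (adjusted p = 0.011) and 0.00 in 2102EP-C1, and ZNF98 had -0.31 and -0.07.

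ZNF627 and ZNF878 of the third block followed. ZNF627 (chr19:11597483-11619161) went from 30.7, 31.5 and 32.4 to 20.7, 21 and 21.8 CPM (log2 fold change -0.59, SE 0.03, adjusted p = 5.3e-14), the opposite direction to its rise with GSK-J4 in NT2/D1-A4. ZNF878 went from 10.9, 10.2 and 9.90 to 6.81, 6.96 and 7.59 CPM (log2 fold change -0.55, SE 0.05, adjusted p = 3.2e-09), the same direction as in NT2/D1-A4. ZNF534 (chr19:52429148-52452263) went from 11.2, 11.8 and 11.7 to 7.0, 7.72 and 8.30 CPM (log2 fold change -0.61, SE 0.05, adjusted p = 9.8e-10), and in NT2/D1-A4 it was below the level limit. ZNF285 completed the 6, from 3.42, 3.27 and 2.91 to 2.45, 2.32 and 2.27 CPM (log2 fold change -0.46, SE 0.08, adjusted p = 2.7e-05). In each of the 6 the pLKO.1 and sh6A+6B libraries did not overlap, and 6 members were called whichever library was left out.

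By block the knockdown and GSK-J4 in 2102EP-C1 showed little of the pattern seen in NT2/D1-A4. The third block had a median log2 fold change of 0.04 and 2 rises among 22 members with GSK-J4 in 2102EP-C1, and -0.03 with 2 falls in the knockdown. The ZNF146 cluster had medians of 0.17 and 0.06 there, with 20 and 21 of 24 members higher, and a median of -0.04 in NT2/D1-A4. The block at chr19:43596392-45076478, at -0.20 in NT2/D1-A4, had medians of 0.09 and -0.01. These medians are set side by side without a test of their difference.

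None of the most abundant members of the 15 blocks passed the fold limit with GSK-J4 in NT2/D1-A4. ZNF146 was read at 316, 317 and 315 CPM in untreated NT2/D1-A4 libraries and 297, 309 and 307 CPM with GSK-J4 (log2 fold change -0.10, SE 0.03, adjusted p = 0.021). ZNF578, the leading gene of chr19:51571283-53580269, fell from 141, 136 and 145 to 115, 113 and 115 CPM without overlap, but below the fold limit (log2 fold change -0.35, SE 0.04, adjusted p = 2.2e-07). ZNF791, the gene of the third block with the most reads, had a log2 fold change of -0.24 (adjusted p = 1.5e-05). ZNF208 was read at 305, 280.4 and 277 CPM and 244, 246 and 245 CPM in the same groups (log2 fold change -0.28, SE 0.05, adjusted p = 5.4e-05). The leading genes of the other blocks were ZNF555, ZNF121, ZNF333, ZNF507, ZNF302, ZNF780B, ZNF574, ZNF227, ZNF114, ZNF473 and ZNF134. ZNF473, which takes part in the processing of histone messenger RNA, had a log2 fold change of -0.10 there (adjusted p = 0.36). Of these 15 genes ZNF121 alone was called with GSK-J4 in 2102EP-C1, and the knockdown called none of them.

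Set side by side over the 221 shared members, with controls that the experiments do not share, GSK-J4 in NT2/D1-A4 and in 2102EP-C1 had a Pearson correlation of 0.53 across genes. Between the knockdown and GSK-J4 the correlation was 0.14 for NT2/D1-A4 and 0.13 for 2102EP-C1. The 3 rises called in both lines were 21.4% of the 14 in NT2/D1-A4 and 60% of the 5 in 2102EP-C1. ZNF878 and ZNF285, called lower in NT2/D1-A4 and in the knockdown, were 22.2% of the 9 and 40% of the 5 falls among shared members, and ZNF627 was called in opposite directions. GSK-J4 in 2102EP-C1 and the knockdown in the same clone had no call in common, and no member was called in all 3. Genes are not independent points in these correlations, and they share libraries, length and base composition.

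**Figure D3:**
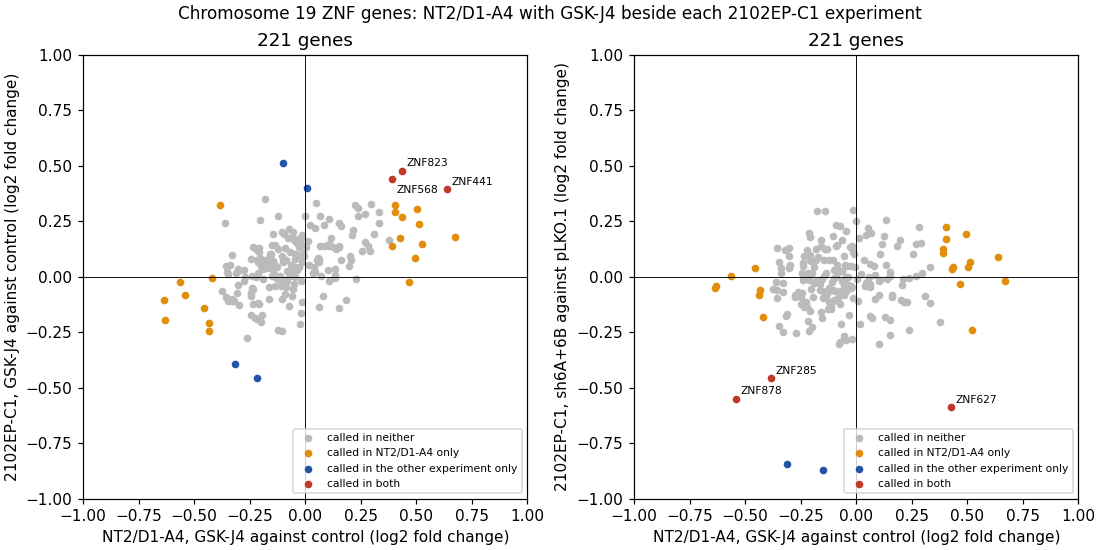
Log2 fold change of 221 chromosome 19 ZNF genes with GSK-J4 in NT2/D1-A4 (horizontal axis) against that with GSK-J4 in 2102EP-C1 (left) and with sh6A+6B in 2102EP-C1 (right); each point is a gene, coloured by the experiments in which it was called. ZNF441, ZNF823 and ZNF568 stand at the upper right of the left panel, where the cloud is tilted (Pearson 0.53), and the cloud of the right panel is nearly round (Pearson 0.14).

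Cisplatin alone moved few of these genes past the fold limit. In NT2/D1-A4 no member was called higher and 3 lower, against 2.05% and 0.396% of all genes. These were ZNF233, from 2.75, 2.57 and 2.17 to 1.64, 1.52 and 1.90 CPM (log2 fold change -0.56, SE 0.13, adjusted p = 0.01), ZNF285, from 3.77, 3.65 and 4.08 to 2.26, 3.27 and 2.97 CPM (log2 fold change -0.46, SE 0.13, adjusted p = 0.035), and ZNF546, from 6.40, 5.29 and 5.73 to 4.77, 4.02 and 4.54 CPM (log2 fold change -0.40, SE 0.10, adjusted p = 0.018). None of the 3 carries a KRAB match. No member was called without untreated library 1, and 1 was called without cisplatin library 2. The ZNF233 call was lost without either of these libraries, and that of ZNF285 without any 1 untreated library or cisplatin library 1 or 3. At adjusted p under 0.05 without the fold limit, 10 members were higher and 13 lower (5.85% and 3.58% of genes). ZNF823 and ZNF440 were among the 10, by 0.29 and 0.19 in log2 fold change (adjusted p = 0.016 and 0.031).

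In 2102EP-C1 without vector no member was called by limma with cisplatin alone, against 0.881% of genes higher and 0.188% lower, although 39 had an unadjusted p under 0.05 and the limma-voom fit called 1. Without untreated library 1, cisplatin library 1 or cisplatin library 2, limma also called 1. Without the fold limit 4 members were higher and 1 lower (3.06% and 1.02% of genes). ZNF440 came closest to a call, from 12.1, 11.6 and 11.2 to 14.8, 15 and 15.9 CPM (log2 fold change 0.38, SE 0.08, adjusted p = 0.0033). In pLKO.1 cells, sequenced more deeply, 1 member was called higher and none lower, against 2.53% and 0.462% of genes. It was ZNF208 (chr19:21939815-22010943), the most abundant member there, which went from 547, 554 and 548 to 779, 766 and 773 CPM (log2 fold change 0.48, SE 0.02, adjusted p = 5.4e-13). In 2102EP-C1 without vector the same gene went from 411, 431 and 425 to 468, 507 and 533 CPM (log2 fold change 0.24, SE 0.04, adjusted p = 0.0012), short of the fold limit. After removal of the trend with transcript length and GC content ZNF208 had a log2 fold change of 0.37 in pLKO.1 cells and no member was called, and without pLKO.1 library 1 the calls were 2.

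Small rises were common in pLKO.1 cells. At adjusted p under 0.05 without the fold limit, 71 members were higher with cisplatin and 9 lower, where 17.9% and 18.2% of all genes were. The median log2 fold change was 0.05, and 0.02 with the length and GC trend removed. Cisplatin effects of the experiments, which have separate controls, had Pearson correlations across the 221 members of 0.48 between the clones without vector, 0.48 between NT2/D1-A4 and pLKO.1 cells and 0.60 between the 2102EP-C1 experiments. The share of reads taken by the members rose with cisplatin in pLKO.1 cells from 0.832% ± 0.00550 to 0.895% ± 0.00396, with no overlap between libraries. A sizeable part of that rise came from ZNF208 alone, the most abundant member there (log2 fold change 0.48), so the share does not describe the members evenly.

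**Figure D4:**
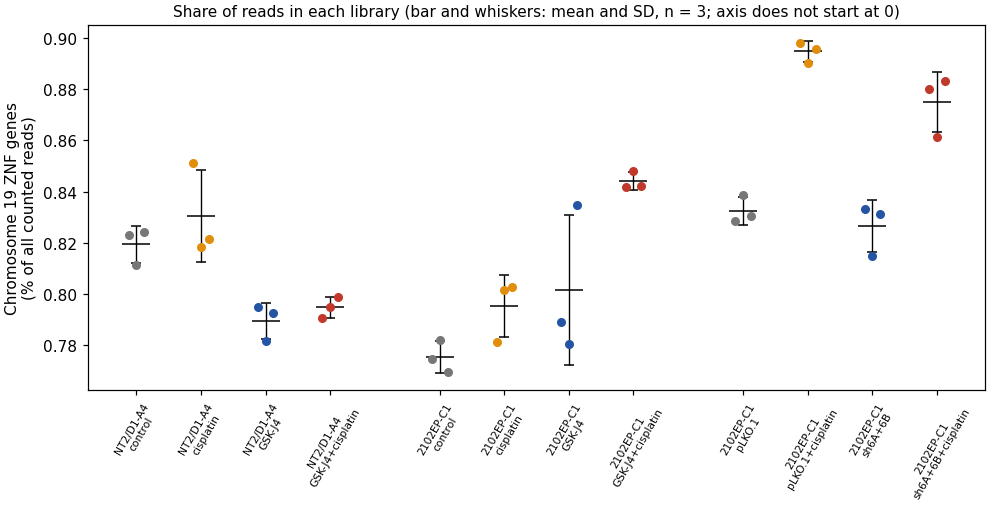
Share of counted reads (%, vertical axis, not starting at 0) taken by all chromosome 19 ZNF genes in each of the 36 libraries, by arm (horizontal axis); points are libraries, bars and whiskers the mean and SD of 3. In NT2/D1-A4 both GSK-J4 arms lie below the controls (0.790% and 0.795% against 0.819%), in 2102EP-C1 the arm with both drugs lies highest (0.844%) and 1 GSK-J4 library stands apart at 0.835%, and in the knockdown experiment both cisplatin arms lie above the others.

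The combination of GSK-J4 and cisplatin against untreated cells called the most members in both lines. In NT2/D1-A4 14 members were called higher and 13 lower, against 15.9% and 9.56% of all genes, with a median log2 fold change of -0.06 against 0.01 over all genes (84 higher, 139 lower). Scaled by total reads alone, the split was 19 higher and 11 lower, with medians of 0.00 over the members and 0.06 over all genes. On adjusted p under 0.05 only, 43 were higher and 79 lower (27.5% and 26.5% of genes). The third block again held 7 of the rises, with 15 of its 19 members higher. In 2102EP-C1 24 members were called higher and 5 lower, against 12.8% and 9.77% of genes, with a median of 0.12 (176 higher, 51 lower). Without the fold limit 111 were higher and 22 lower there (27.4% and 25.6% of genes). The combined and the GSK-J4 arms of an experiment share its untreated libraries, so these values are not a separate test of the changes above.

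In 2102EP-C1 the rises with both drugs were most frequent in the ZNF146 cluster at chr19:36182060-37779586, where 8 of 24 members were called higher, 23 of 24 were higher by sign and the median log2 fold change was 0.33. Among all genes 12.8% were called higher in this comparison. The called genes there were ZNF568, ZNF383, ZNF570, ZNF793, ZNF829, ZNF345, ZNF573 and ZNF569. With the trend of transcript length and GC content removed, ZNF568, ZNF383 and ZNF570 had log2 fold changes of 0.51, 0.48 and 0.40. The rest of these called genes then had 0.28 to 0.35, under the fold limit. ZNF823 of the third block had the largest value, from 5.51, 5.36 and 5.67 to 8.73, 9.44 and 8.41 CPM (log2 fold change 0.66, SE 0.08, adjusted p = 1.5e-07). The falls were ZNF628 (log2 fold change -0.92), ZNF121 (-0.60), ZNF574 (-0.43), ZNF444 (-0.43) and ZNF414 (-0.41). Between the lines, 6 members were called higher in both, 42.9% of the 14 in NT2/D1-A4 and 25% of the 24 in 2102EP-C1, 1 was called lower in both and ZNF285 was called in opposite directions.

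These 2102EP-C1 values moved with base composition. Across the 227 members the log2 fold change with both drugs had a Spearman correlation of -0.43 with transcript GC content, against -0.35 over all genes. The members, at a median of 42.1% GC, are poorer in GC than genes in general at 48.3%. With the trend of length and GC content removed in each library, the calls were 10 higher and 5 lower and the median 0.04. The Spearman correlation with GC content was then -0.23 over the members and -0.01 over all genes, so a slope was left among the members. In NT2/D1-A4 the same removal left 13 higher, 13 lower and a median of -0.08. For GSK-J4 alone it left 14 higher and 10 lower with a median of -0.07 in NT2/D1-A4, and 4 higher and 1 lower with a median of 0.02 in 2102EP-C1.

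**Figure D5:**
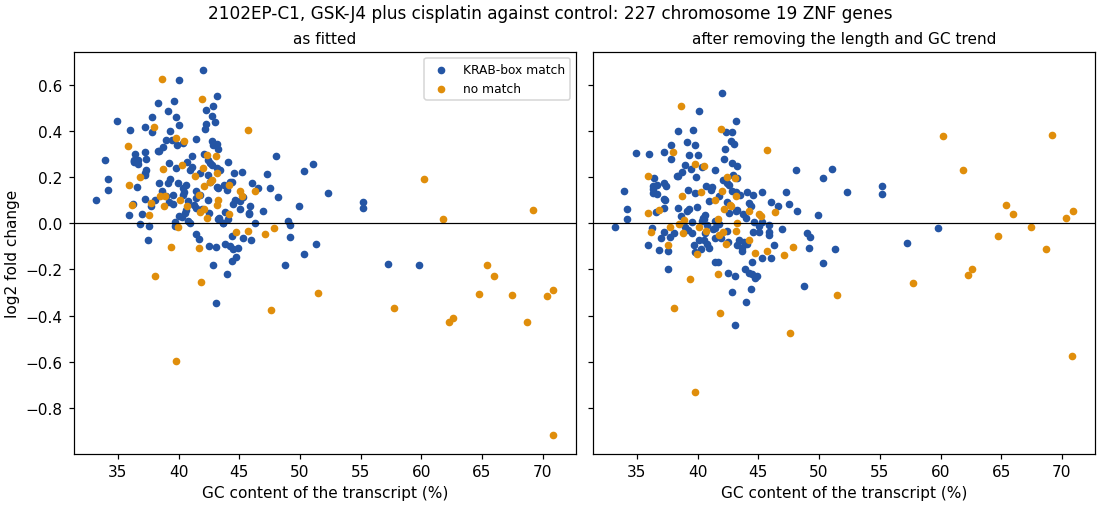
Log2 fold change (vertical axis) of 227 chromosome 19 ZNF genes with GSK-J4 plus cisplatin against untreated 2102EP-C1 cells, by the GC content of their transcript in percent (horizontal axis), as fitted (left) and after the trend with length and GC content was removed (right); blue points carry a KRAB-box match. As fitted the points slope downward to ZNF628 at 70.8% GC and -0.92, and the median of the genes goes from 0.12 on the left to 0.04 on the right.

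The combined arm of the knockdown experiment, sh6A+6B with cisplatin against pLKO.1 without, had 5 members called higher and 6 lower, against 8.51% and 7.5% of genes. With no limit on the fold, 97 were higher and 49 lower (30.9% and 31.7% of genes). The rises were ZNF431, ZNF799, ZNF440, ZNF708 and ZNF675, at 0.38 to 0.44 in log2 fold change. The falls were ZNF285, ZNF492, ZNF98, ZNF865, ZNF333 and ZNF534. Reads of ZNF799 may be shared with ZNF443, and those of ZNF492 and ZNF98 with each other, as described above. The split was 7 higher and 3 lower when scaled by total reads alone and 1 higher and 7 lower with the length and GC trend removed, where the median went from 0.05 to -0.02.

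Cisplatin given on top of the pretreatment was compared with the pretreatment alone. In NT2/D1-A4 cells with GSK-J4 no member was called by limma, against 0.158% of genes higher and 0.219% lower, although 33 members had an unadjusted p under 0.05. The limma-voom fit called 0 as well, and 1 member was called without GSK-J4 library 2 or combined library 1 or 3. In 2102EP-C1 with GSK-J4 none was higher and 2 lower (0.916% and 1.31% of genes). Without the fold limit 32 were higher and 6 lower (7.64% and 8.1% of genes). ZNF628 went from 3.47, 3.86 and 2.15 to 2.04, 2.11 and 2.16 CPM (log2 fold change -0.53, SE 0.15, adjusted p = 0.017), and ZNF414 from 5.65, 5.30 and 4.63 to 3.74, 3.86 and 4.29 CPM (log2 fold change -0.38, SE 0.10, adjusted p = 0.0094). Both are GC-rich genes without a KRAB match, and both calls were lost with the length and GC trend removed, at -0.31 and -0.26, and without GSK-J4 library 1 or 2 or combined library 1. The ZNF414 call was also lost without combined library 2.

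In sh6A+6B cells cisplatin raised 2 members, against 2.48% of genes, and lowered none, against 1.04%. ZNF627 went from 20.7, 21 and 21.8 to 29.5, 29 and 29 CPM (log2 fold change 0.46, SE 0.03, adjusted p = 2e-11), beside the 30.7, 31.5 and 32.4 CPM of pLKO.1 cells. ZNF440 went from 16.2, 17 and 17.6 to 23, 22.8 and 23.3 CPM (log2 fold change 0.43, SE 0.04, adjusted p = 8.8e-10), and in pLKO.1 cells it had risen from 17.7, 17.2 and 16.5 to 21.7, 21.9 and 22.7 CPM, just short of the fold limit. Leaving the fold limit aside, 111 members were higher and 25 lower at adjusted p under 0.05 in sh6A+6B cells (22.1% and 22.7% of genes), with a median log2 fold change of 0.08 that was 0.05 with the length and GC trend removed.

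Whether cisplatin acted differently after pretreatment was tested as the interaction term. In NT2/D1-A4 no member was called, against 0.0426% of genes lower and none higher, 14 members had an unadjusted p under 0.05, and limma-voom called 0. In 2102EP-C1 with GSK-J4, 2 members, ZNF582 and ZNF527, were called higher (0.194% of genes higher, 0.663% lower). ZNF527 was at 11.2, 12.5 and 12.1 CPM untreated, 11.6, 11 and 10.6 with cisplatin, 12.1, 12.9 and 13.1 with GSK-J4 and 16.1, 14.9 and 15.4 with both (log2 fold change 0.40, SE 0.09, adjusted p = 0.022). ZNF582 was at 8.76, 8.04 and 7.40 CPM untreated, 7.08, 6.96 and 6.54 with cisplatin, 8.59, 9.01 and 9.61 with GSK-J4 and 10.9, 10.1 and 10.3 with both (log2 fold change 0.44, SE 0.11, adjusted p = 0.036). Neither was called with the length and GC trend removed (adjusted p = 0.15 for ZNF527 and 0.12 for ZNF582). The ZNF527 call was lost in 6 and the ZNF582 call in 9 of 12 fits that each left out a library. These fits gave 0 to 7 calls, with 7 without GSK-J4 library 3, 0 without untreated library 2, cisplatin library 2 or 3, GSK-J4 library 1 or combined library 1, and 1 without untreated library 1 or 3, cisplatin library 1, GSK-J4 library 2 or combined library 2.

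In the knockdown experiment ZNF627 was the called member (1.09% of genes higher, 2.67% lower). Cisplatin left it at 31.1, 30.7 and 30.6 CPM in pLKO.1 cells, beside 30.7, 31.5 and 32.4 CPM without the drug, and raised it in sh6A+6B cells as described (log2 fold change 0.50, SE 0.04, adjusted p = 1.7e-09). Without the fold limit 52 members had a higher and 24 a lower cisplatin response (17.2% and 18% of genes). ZNF208 had an interaction of -0.32 (adjusted p = 7.7e-08), below the fold limit, and cisplatin took it from 529.8, 505 and 530.3 to 589, 559.5 and 613 CPM in sh6A+6B cells.

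The members share features that their names did not require. In NT2/D1-A4, 71.7% of them carry the nucleotide match to the KRAB box in their coding sequence, against 38.4% of ZNF genes on other chromosomes, and they have a median of 6 matches to the linker between fingers. A missing match says only that these letters are absent from the transcript used. With GSK-J4 in NT2/D1-A4, the 160 members with the match were called higher 13 times and lower 4 times. Their median log2 fold change was -0.05. The 63 members without it were called higher 1 time and lower 5 times, with a median of -0.15. Many of these lie in the block at chr19:43596392-45076478, whose median was -0.20, and match and block were not separated. All genes had 13.8% called higher and 6.48% lower there. With both drugs in 2102EP-C1 the 163 members with the match had 20 rises, no fall and a median of 0.15. The 64 without it had 4 rises, 5 falls and a median of 0.08, against 12.8% and 9.77% of all genes. Of these falls, ZNF628, ZNF574, ZNF444 and ZNF414 have transcripts of 62.3% to 70.8% GC, and ZNF121 one of 39.8%. In the knockdown 4 of 163 and 2 of 64 were called lower, against 5.74% of all genes.

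ZNF genes on other chromosomes are given for comparison, without a test of the difference. They had 15 rises, 10 falls and a median of -0.03 among 219 with GSK-J4 in NT2/D1-A4, and 28 rises, 8 falls and a median of 0.06 among 219 with both drugs in 2102EP-C1. Over all genes 13.8% rose and 6.48% fell in the former comparison, and 12.8% and 9.77% in the latter. The remaining protein-coding genes of chromosome 19, which are GC-rich at a median of 60.6%, had a lower median with both drugs in 2102EP-C1, with 31 rises, 150 falls and a median of -0.20 among 653. With GSK-J4 in NT2/D1-A4 those 589 genes had 41 rises, 69 falls and a median of -0.09.

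The partners through which KRAB zinc finger proteins repress their targets were followed as a list of 27 genes. With GSK-J4 in NT2/D1-A4 all 27 were lower by sign, 23 of them at adjusted p under 0.05, with a median log2 fold change of -0.24, and UHRF1 and DNMT3B were called. All 27 were also lower under each other scaling and correction tried, with a median of -0.19 under total-read scaling, where the median of all genes was 0.05. Over the 15078 genes with a known transcript length, the log2 fold change had a Spearman correlation of -0.23 with mean log2 CPM. None of the corrections removed this trend with level, and its part in the partner values was not tested. The list is set beside a background in which 23.8% of all genes were lower at adjusted p under 0.05. Among protein-coding genes with a mean above 1 log2 CPM, 3488 of 11229 were lower by that measure. By the call with the fold limit, 2 of the 27 partners were lower, against 6.48% of all genes. UHRF1, which recruits the maintenance DNA methyltransferase, went from 85.1, 86.6 and 88 to 48.3, 51.8 and 47.5 CPM (log2 fold change -0.86, SE 0.07, adjusted p = 9.5e-09). DNMT3B, a de novo DNA methyltransferase, had a log2 fold change of -0.79 (adjusted p = 7.4e-11). TRIM28, the KRAB corepressor itself, fell by less than the fold limit, from 491, 495 and 504 to 428, 440.2 and 434 CPM (log2 fold change -0.24, SE 0.05, adjusted p = 0.00021).

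In 2102EP-C1 with GSK-J4, 2 of the 27 partners were higher and 14 lower at adjusted p under 0.05 (19.2% and 16% of all genes), with a median of -0.08. UHRF1 and DNMT3B were again called lower (log2 fold change -0.48 and -0.43), against 3.12% of all genes. In the knockdown 4 were higher and 16 lower (25.6% and 27.2% of all genes), with a median of -0.08. UHRF1 (-0.43) and CBX5 (-0.47), a heterochromatin protein, were called lower there, against 5.74% of all genes. CBX5 had a log2 fold change of 0.30 with GSK-J4 in the same clone (adjusted p = 1.1e-07), higher rather than lower and below the fold limit. TRIM28 fell by 0.16 on the log2 scale in 2102EP-C1 with GSK-J4 and by 0.20 in the knockdown (adjusted p = 0.00066 and 8.2e-09).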

How the data were processed

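RNA-seq was done by the authors on 36 libraries with a stranded poly-A kit. Per the study's methods and the submitters' processing notes, reads were trimmed with Trimmomatic, aligned with STAR to GRCh38.p14 and counted with featureCounts, and the strand setting of the counting is not given in the sources used here. The deposited values are log2 CPM, scaled by the authors with TMM factors and a prior count of 3, over genes with a CPM above 0.5 in at least 2 samples, in 1 table per experiment. Reads recovered from these values came out whole, within 0.05 of a read, for 100% of the 44947, 44234 and 12595 values under 50 reads in NT2/D1-A4, 2102EP-C1 with GSK-J4 and the knockdown. Printed CPM are recovered reads per 1000000 without the TMM factor (0.974 to 1.03), so a fold change can differ slightly from the ratio of printed CPM. Intervals were not drawn, and at 26.8 to 100.9 M (mega) reads 1 CPM stands for about 27 to 101 reads.

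Samples were grouped by their labels, 3 per arm. Deposited log2 values were fitted with limma 3.58.1 (limma-trend, R 4.3.3, Python 3.11.15) on all 12 libraries of an experiment, with 5 comparisons each: cisplatin alone, pretreatment alone, combination against control, cisplatin within pretreated cells and the interaction. All genes were tested, two-sided, with Benjamini-Hochberg adjustment. Planted changes in simulated data for pretreatment alone were recovered for 198, 194 and 199 of 200 genes, with 7, 3 and 2 false calls among 16431, 17035 and 16459 genes, and 1.5-fold changes for 60 of 62, 58 of 64 and 63 of 64. The planted changes were 1.5-fold or larger, in genes with a mean above 1 log2 CPM. The simulated spread was fixed and not estimated from these libraries. Recovery of changes between 1.3-fold and 1.5-fold, where many calls here lie, was not tested. Alternatives were the groups compared alone, a replicate block, removal of the length and GC trend (natural splines with 4 degrees of freedom per library), other filters, limma-voom, total-read scaling, a prior count of 0.5, no fold limit and leaving out each library.

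Genes named with values were the 5 largest rises and falls called with non-overlapping libraries in pretreatment alone, the 2 largest called in the cisplatin comparisons and the interaction, members called in all 3 experiments, the level extremes and the most abundant of each block. Others were named after their values had been seen. The members and lists were chosen with earlier results of these data known. Gene positions, and the blocks made from them, come from RefSeq. Transcript lengths, GC content and coding sequences come from GENCODE v44, and promoters from RefSeq on GRCh38.p14. The finger linker and the KRAB box were searched as degenerate nucleotide motifs in coding sequences, in place of the protein search that had been planned. The 50-base stretches shared between genes were counted in transcripts (median 0.401% over 263 symbols, with 8 over 20%). KRAB partner genes were a list of 27. No other per-sample column was left aside.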

Additional observations from a re-analysis of the deposited data

Results flagged for a closer look

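The interaction terms of 3 members passed the test of a difference in the cisplatin response. They were 0.40 for ZNF527 and 0.44 for ZNF582 in 2102EP-C1 with GSK-J4, and 0.50 for ZNF627 in the knockdown experiment. All are log2 fold changes toward a higher response after pretreatment. The ZNF527 call was lost in 6 and the ZNF582 call in 9 of 12 fits that each left out a library. Neither was called with the length and GC trend removed. The ZNF627 call was kept in all 12 such fits.

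With GSK-J4 alone, 15 of the 221 shared members had all treated libraries below the untreated ones in NT2/D1-A4 and above them in 2102EP-C1, and none had the opposite pattern. Another 31 lay wholly above in both lines and 14 wholly below in both. Taken by line, 46 members lay wholly above and 93 wholly below in NT2/D1-A4 (30.4% and 29.2% of all genes). In 2102EP-C1 these were 78 and 18 (23.8% and 20.8% of all genes). How many of all genes were separated in opposite directions in the lines was not counted, so the 15 have no background. Of the 15, the 3 that the naming rule picked are given here. ZNF285 had a log2 fold change of -0.39 in NT2/D1-A4 and 0.32 in 2102EP-C1, ZNF780B one of -0.18 and 0.077, and ZNF134 one of -0.11 and 0.093. The difference between the lines was not tested, because the lines were normalized in separate tables.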

How the results depend on the processing

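Over 31 results for named genes, 620 alternative values kept their direction, of which 567 kept the call and 53 lost it. These results were picked as the largest called changes in the same libraries, most with non-overlapping groups. A kept direction was therefore likely from the start and is not separate support. The replicate block, which the labels' shared numbers allow, left all 15 counts of called members as they were (for example 23, 27 and 3 in NT2/D1-A4 for GSK-J4, the combination and cisplatin alone), and with the length and GC trend removed as well it gave 1 for cisplatin alone in NT2/D1-A4 and 14 for the combination in 2102EP-C1. Same-numbered libraries did not deviate together (correlations above 0.1 in 3, 1 and 5 of 18 pairs), so the numbers were not taken as pairs. Without the fold limit the counts were 23, 113, 122 and 1 in NT2/D1-A4 for cisplatin, GSK-J4, the combination and cisplatin after GSK-J4, 5, 77, 133 and 38 in 2102EP-C1, and 80, 115, 146 and 136 in the knockdown experiment, with 76 for its interaction. With the length and GC trend removed, the combination in 2102EP-C1 called 15, cisplatin after GSK-J4 and the interaction there 0 each, cisplatin in pLKO.1 cells 0 and the knockdown interaction 2, with the same 0 and 2 under the added block. Members above a mean of 2 log2 CPM gave 1 for cisplatin in NT2/D1-A4 and 1 for cisplatin after GSK-J4 in 2102EP-C1. The latter was also 1 with limma-voom and with the groups compared alone, and cisplatin alone in 2102EP-C1 was 1 with limma-voom and with total-read scaling. Leaving out single libraries gave, for cisplatin, pretreatment, the combination, cisplatin after pretreatment and the interaction, 0 to 3, 21 to 28, 24 to 36, 0 to 1 and 0 in NT2/D1-A4, 0 to 1, 5 to 9, 25 to 33, 0 to 3 and 0 to 7 in 2102EP-C1, and 1 to 2, 6, 8 to 14, 2 to 3 and 1 in the knockdown experiment. The causes were not tested.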
